A study of Mus musculus with 15 samples.

Results

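The transcripts described here are those of 10 genes of growth factor signalling in the kidney tubule, out of 24421 gene symbols counted. They were taken by name: the receptors Egfr, Erbb2, Erbb3 and Met, and the EGF-type ligands Hbegf, Tgfa, Areg, Ereg, Btc and Egf. All 10 were listed in the count table, and all 10 passed the filter on low counts, as did 13912 genes in all. RNA was sequenced from 15 libraries of cultured primary proximal tubule cells, grown from kidneys of C57BL/6 mice and passaged once. The groups were female KO (n = 4 libraries), female WT (n = 4), male KO (n = 3) and male WT (n = 4). KO cells came from Diet1 knockout mice and WT cells from wild-type mice, and the labels name no other allele, agent or age. Each group is a single pool of cells from 3 to 4 mice, which the labels say was divided into technical replicates. The p-values measure the spread between libraries of a pool, and cover neither mice nor separate cultures. The targeted gene was not analysed here, and the genotype labels were taken as given.

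EGF-type ligands are made as membrane-anchored precursors, from which ADAM proteases release the soluble growth factor. Egfr binds all 6 ligands measured here and pairs with itself or with Erbb2, which has no known ligand, or with Erbb3, whose own kinase is weak and which binds neuregulins. Met is the receptor of hepatocyte growth factor and signals through many of the same adaptors to the ERK and PI3 kinase pathways. In the proximal tubule, Egfr and Met are known for their part in regrowth after injury. Egf itself is made in the thick ascending limb and distal convoluted tubule.

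Library totals ran from 17648416 to 30896637 counts. Xist lay between 531 and 675 CPM (counts per 1e+06 counts, scaled by TMM) in female libraries and at most 0.777 CPM in male ones, so no library went against its sex label. The summed level of 9 general epithelial genes was 6833 to 7051 CPM in female KO, 5807 to 5976 in female WT, 7558 to 7753 in male KO and 6070 to 6454 in male WT. Of 16 genes of the differentiated proximal tubule, 9 had enough counts to be tested, and the carriers Slc34a1, Slc22a6 and Slc22a8 had at most 3 counts in any library. Group means were also low for Aqp1 (1.19 to 1.45 CPM), Anpep (1.24 to 1.56) and Hnf4a (0.794 to 1.11). They were at most 0.327 CPM for Slc5a2, Slc5a1, Dpep1 and Pdzk1. Others of the 16 were well detected. Group means were 78.3 to 90.6 CPM for the brush border peptidase Mme and 62.2 to 82.0 for the bicarbonate carrier Slc4a4. They were 35.5 to 68.7 for Ggt1 and 12.1 to 20.9 for Lrp2, or megalin. The 16 summed to 203 to 239 CPM in female KO, 269 to 292 in female WT, 227 to 239 in male KO and 222 to 243 in male WT. Of the 9 tested, 2 were lower in female KO, where 18.6% of all genes tested were lower. In male KO 1 was higher and 2 lower, where 10.1% of all genes were called each way. The part of these differences in the values of the 10 genes was not tested.

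Per kilobase of annotated exon, the most abundant of the 10 transcripts was Hbegf, heparin-binding EGF-like growth factor. Its level was 84.0 CPM per kilobase in female KO, 67.4 in female WT, 70.7 in male KO and 69.7 in male WT. Met followed at 27.3 CPM per kilobase in female KO, 30.3 in female WT, 30.8 in male KO and 27.6 in male WT, and Egfr at 24.2 in female KO, 19.98 in female WT, 23.0 in male KO and 20.3 in male WT. Both receptors thus stood below Hbegf and above the others in each group. Erbb2 was at 14.3 to 16.0 CPM per kilobase over the group means, Erbb3 at 8.86 to 10.2 and Tgfa, transforming growth factor alpha, at 5.59 to 6.58. The rarer ligands were Areg, or amphiregulin, at 1.24 to 4.24, Ereg, or epiregulin, at 0.627 to 1.09, and Btc, or betacellulin, at 0.761 to 1.04 CPM per kilobase. Egf was rarest, at 0.0726 to 0.0777 CPM per kilobase, from 11 to 31 counts a library. Hbegf made up 88.5 ± 0.465% of the summed per-kilobase level of the 6 ligands in female KO, 88.3 ± 0.343% in female WT, 85.1 ± 0.329% in male KO and 85.4 ± 0.403% in male WT (SD, n = 4, 4, 3 and 4). These scales use the union of all annotated exons, and the length transcribed in these cells was not measured.

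**Figure D1:**
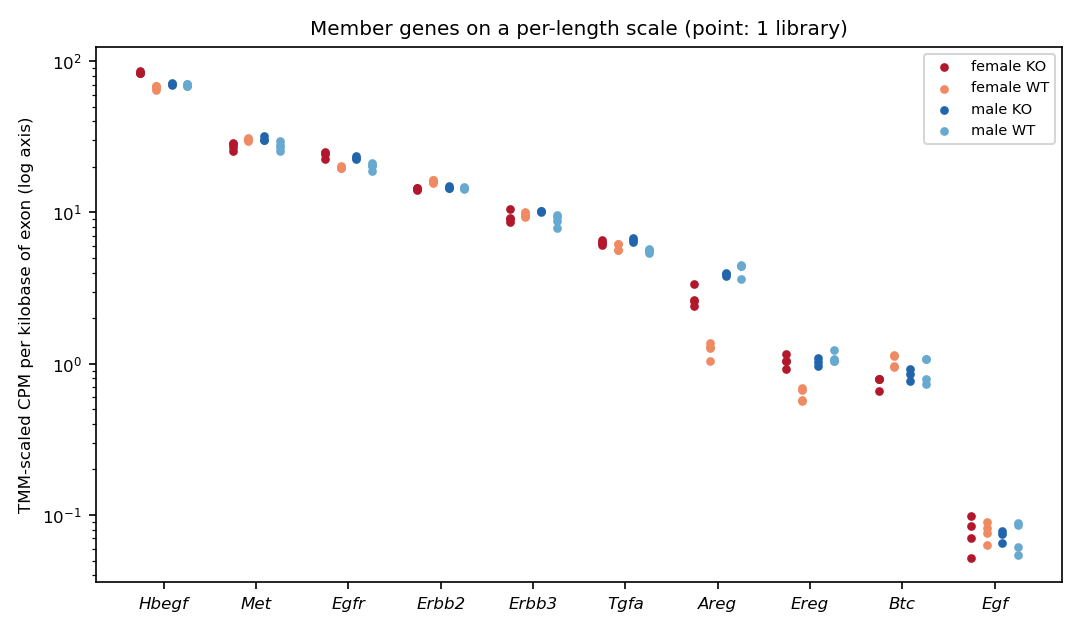
Level of each of the 10 genes in TMM-scaled CPM per kilobase of exon (log axis), 1 point per library, coloured by group. Hbegf is highest in all 15 libraries and Egf lowest, and the groups stand widest apart for Areg, with female WT lowest.

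The bases before the start of Areg and Btc are shown because these neighbours differed in opposite directions between female KO and WT cells, and those of Egfr because it was higher in KO cells of both sexes. Each is the 250 bases before the RefSeq start in GRCm38.p6, read 5′ to 3′ on the gene's strand, at chr5:91139349-91139598 (Areg, plus strand), chr5:91402995-91403244 (Btc, minus strand) and chr11:16751953-16752202 (Egfr, plus strand). Capitals mark matches to the motifs that were searched.
Areg: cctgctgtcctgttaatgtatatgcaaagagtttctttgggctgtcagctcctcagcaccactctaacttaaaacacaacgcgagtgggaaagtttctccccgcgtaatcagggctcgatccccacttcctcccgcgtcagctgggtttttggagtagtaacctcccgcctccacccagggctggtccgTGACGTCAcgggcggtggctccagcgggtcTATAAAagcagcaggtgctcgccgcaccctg
Btc: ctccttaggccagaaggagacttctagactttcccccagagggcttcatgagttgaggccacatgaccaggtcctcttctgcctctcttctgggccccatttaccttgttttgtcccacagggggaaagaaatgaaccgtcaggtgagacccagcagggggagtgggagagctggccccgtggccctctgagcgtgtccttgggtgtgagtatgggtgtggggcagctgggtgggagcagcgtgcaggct
Egfr: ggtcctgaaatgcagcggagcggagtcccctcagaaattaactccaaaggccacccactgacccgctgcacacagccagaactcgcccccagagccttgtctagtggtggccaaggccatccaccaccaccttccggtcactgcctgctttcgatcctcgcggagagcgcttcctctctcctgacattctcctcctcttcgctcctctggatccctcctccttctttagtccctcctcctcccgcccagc
The motifs, searched on both strands and with no overlap between their matches in these windows, were the cyclic AMP response element (TGACGTCA), the AP-1 element (TGANTCA), the TATA box (TATAAA) and the CACGTG E-box. They occur in 1.55%, 6.75%, 12.4% and 6.02% of 32851 RefSeq windows of the same length. The Areg window held a TGACGTCA that begins 61 bases before the start and a TATAAA that begins 31 bases before it. The Btc and Egfr windows held none of these letters. Their share of G and C was 57.2% for Areg, 59.6% for Btc and 60.8% for Egfr. The table of windows held 7 of the 10 genes, and lacked Ereg, Hbegf and Erbb3. Among the windows not shown, that of Met held an AP-1 match that begins 54 bases before the start and a CACGTG that begins 126 bases before it. Those of Erbb2, Tgfa and Egf held none. A match is a description of sequence, not a shown site of binding.

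In GRCm38, Egfr lies on chromosome 11 (16752203 to 16918158), as does Erbb2 (98412470 to 98437716). Erbb3 lies on chromosome 10 (128567523 to 128589652) and Met on chromosome 6 (17463800 to 17573980). Among the ligands, Hbegf is on chromosome 18 (36504927 to 36515805), Tgfa on chromosome 6 (86195223 to 86275719) and Egf on chromosome 3 (129677565 to 129755316). The genes of Ereg (91074622 to 91093646), Areg (91139599 to 91148432) and Btc (91357261 to 91402994) sit together on chromosome 5 within 328373 bases. The gap between Ereg and Areg is 45952 bases and that between Areg and Btc is 208828. Exons of Erbb2, Ereg and Tgfa overlap an opposite-strand gene by 9, 141 and 118 bases, and exons of Egf overlap a pair of them by 607 and 500 bases. The strand setting of the counting is not given in the sources used here, so reads of these stretches cannot be assigned to a strand.

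The first question was what set KO cells apart from WT cells in females. Female KO cells had more Areg, Ereg and Hbegf among the ligands and more Egfr, and less Btc, Erbb2 and Met. The Areg difference was 2.18-fold, the widest of the 10. In all, 4 of 10 genes were higher and 3 lower by the quasi-likelihood test of edgeR, at an adjusted p below 0.05 (Benjamini-Hochberg, over all genes tested). Over all genes, 39.3% were called in either direction, 20.7% higher and 18.6% lower. Of the called genes 52.7% were higher, against 39.9% with library size as the only scaling. The median log2 fold change of the 10 was 0.04, and that of all genes tested was 0.00014.

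Among the receptors, Egfr had 255, 281, 275 and 286 CPM in female KO libraries, against 224, 223, 227 and 231 CPM in female WT libraries. All KO libraries were above all WT libraries, and the log2 fold change was 0.28 ± 0.034 (standard error; adjusted p = 7.93e-08). Erbb2 had 73.1, 74.7, 75.3 and 75.3 CPM in female KO, against 82.2, 85.7, 80.9 and 84.9 CPM in female WT. The groups did not overlap, with KO lower by a log2 fold change of -0.16 ± 0.033 (adjusted p = 1.61e-04). Met had 195, 207, 220.1 and 216 CPM in female KO, against 235, 237, 231 and 227 CPM in female WT. It too was lower in every KO library, with a log2 fold change of -0.15 ± 0.039 (adjusted p = 0.00329). Erbb3, by contrast, ranged from 51.6 to 63.1 CPM in female KO and from 55.9 to 60.6 CPM in female WT, and did not pass the test (log2 fold change -0.04 ± 0.056, adjusted p = 0.577).

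Among the ligands, Hbegf had 405, 414, 403 and 402 CPM in female KO, against 323, 314, 333 and 333 CPM in female WT. The log2 fold change was 0.32 ± 0.026 (adjusted p = 3.96e-12), and the ranges lay far apart relative to their width. Areg, a ligand with lower affinity for Egfr than Egf, had 4.11, 3.19, 3.14 and 2.92 CPM in female KO, against 1.27, 1.54, 1.56 and 1.67 CPM in female WT. These levels rest on 64 to 72 counts a library in KO and 25 to 42 in WT. The log2 fold change was 1.12 ± 0.16 (adjusted p = 4.22e-07), and every KO library was above every WT library. Ereg, which also binds the receptor Erbb4, had 3.82, 4.29, 4.29 and 4.81 CPM in female KO, against 2.84, 2.39, 2.34 and 2.78 CPM in female WT (log2 fold change 0.74 ± 0.13, adjusted p = 1.88e-05). Btc, which shares both of those receptors, went the other way. It had 2.97, 3.59, 3.60 and 3.60 CPM in female KO, against 4.36, 5.16, 5.08 and 4.28 CPM in female WT (log2 fold change -0.44 ± 0.14, adjusted p = 0.00902). The groups did not overlap for either gene. Tgfa was at 41.0 ± 1.37 CPM in female KO and 38.4 ± 2.10 CPM in female WT (SD, n = 4 each), with overlapping libraries, and did not pass (log2 fold change 0.09 ± 0.045, adjusted p = 0.109). Egf, at 0.860 ± 0.223 CPM in female KO and 0.876 ± 0.127 CPM in female WT, was at the limit of what this depth can compare (log2 fold change -0.01 ± 0.26).

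Of the 10 genes, 7 had female KO and WT libraries that did not overlap, and these were the 7 called. Libraries did not overlap for 36.1% of all genes tested, 19.4% with KO higher and 16.7% with KO lower. No left-out library changed any of these 7 calls, nor did any other alternative in which the gene was tested. Ereg and Btc were not tested under the stricter filter of 5 CPM in at least 3 libraries.

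**Figure D2:**
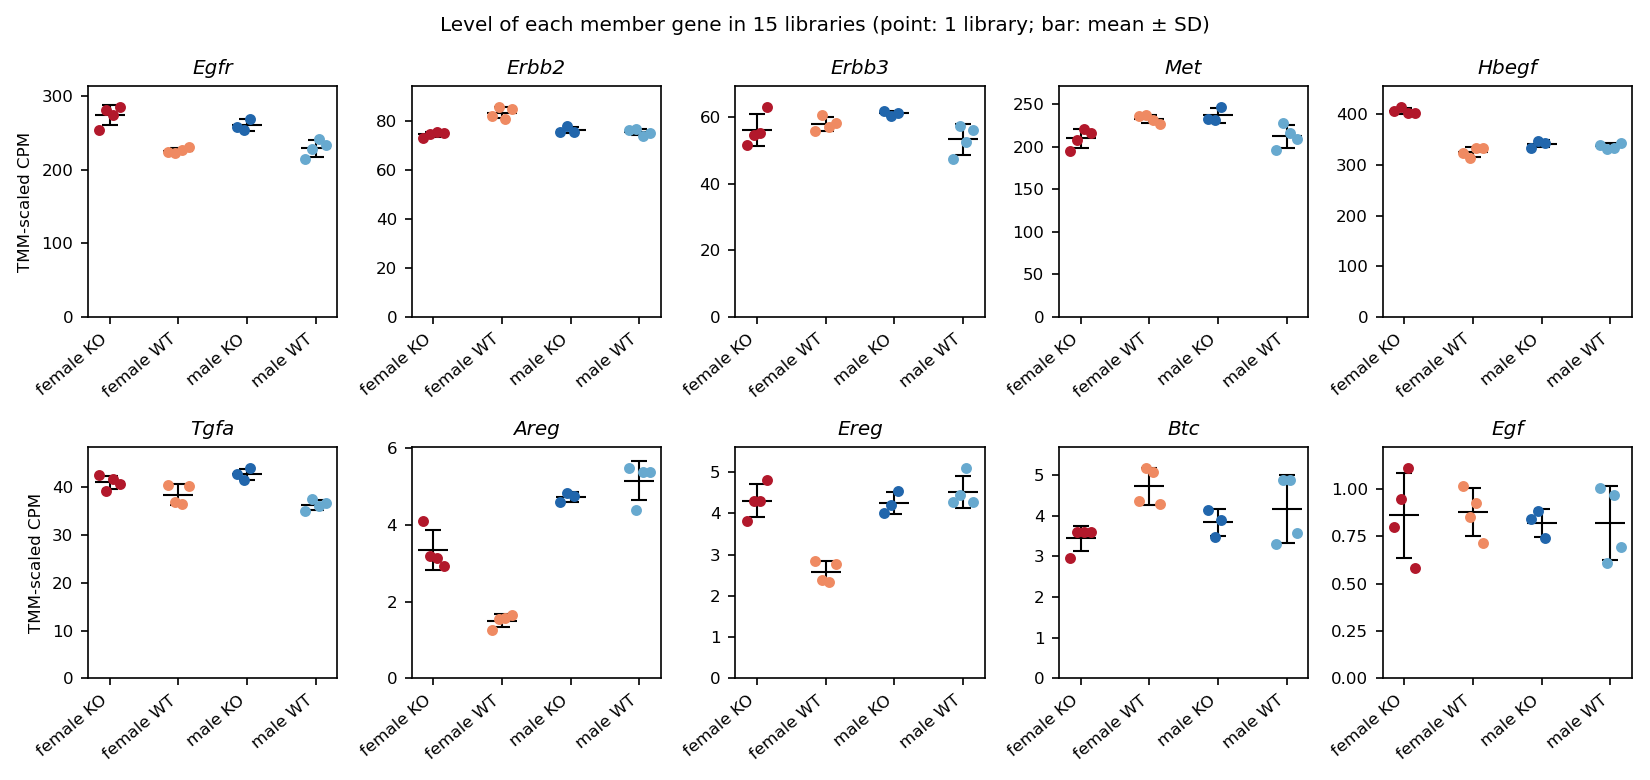
TMM-scaled CPM of each gene (vertical axis from 0, its own scale per panel) in female KO, female WT, male KO and male WT, 1 point per library, with the group mean and SD as black bars. Egfr is higher in KO than in WT in both sexes, while Areg and Ereg are lowest in female WT and the other 3 groups lie above it.

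In male cells, 3 receptors and 1 ligand differed. Male KO cells had more Egfr, Erbb3, Met and Tgfa than male WT cells, each by a log2 fold change between 0.16 and 0.24. By edgeR, 4 of 10 genes were higher and 0 lower, where 20.2% of all genes were called, 10.1% in each direction. The counts of higher and lower genes were the same 4 and 0 at an unadjusted p below 0.05, with DESeq2 and with limma-voom. The median log2 fold change of the 10 was 0.02, against 0.00021 for all genes tested.

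Egfr had 259, 254 and 269 CPM in male KO libraries, against 214, 228, 241 and 234 CPM in male WT libraries (log2 fold change 0.19 ± 0.037, adjusted p = 3.40e-04). Tgfa had 42.7, 41.6 and 43.9 CPM in male KO, against 35.0, 37.4, 36.1 and 36.7 CPM in male WT (log2 fold change 0.24 ± 0.048, adjusted p = 3.54e-04). For both genes the groups did not overlap, and no left-out library ended the call. Erbb3 had 61.9, 60.3 and 61.4 CPM in male KO, against 47.3, 57.5, 52.5 and 56.0 CPM in male WT (log2 fold change 0.21 ± 0.060, adjusted p = 0.0137). Its WT libraries spread more widely than its KO libraries, and without male KO replicate 1 the adjusted p was 0.0542, the highest of a range that began at 1.26e-04 over 24 alternatives. Met had 232, 231 and 246 CPM in male KO, against 196, 228, 215 and 208 CPM in male WT (log2 fold change 0.16 ± 0.041, adjusted p = 0.00603). The nearest libraries of the groups were 231 CPM in KO and 228 CPM in WT. Without male KO replicate 3 its adjusted p was 0.0514, the highest of a range that began at 5.51e-04.

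The other 6 genes did not pass in male cells. Hbegf was at 342 ± 6.97 CPM in male KO (n = 3) and 337 ± 5.51 CPM in male WT (n = 4), a log2 fold change of 0.02 ± 0.028. Erbb2 was at 76.3 ± 1.29 CPM in male KO and 75.5 ± 1.26 CPM in male WT (log2 fold change 0.02 ± 0.036). For these abundant transcripts the standard errors are small, and the estimates are close to 0. For the rare ligands they are wider: Areg had 4.73 ± 0.125 CPM in male KO and 5.15 ± 0.513 CPM in male WT (log2 fold change -0.13 ± 0.12), Ereg 4.25 ± 0.268 CPM in male KO and 4.52 ± 0.388 CPM in male WT (-0.09 ± 0.12), and Btc 3.84 ± 0.335 CPM in male KO and 4.16 ± 0.843 CPM in male WT (-0.10 ± 0.15). Egf was at 0.821 ± 0.0736 CPM in male KO and 0.819 ± 0.196 CPM in male WT. Libraries of male KO and WT did not overlap for 4 of the 10 genes, the 4 called, against 27.7% of all genes tested, 13.9% with KO higher and 13.7% with KO lower.

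**Figure D3:**
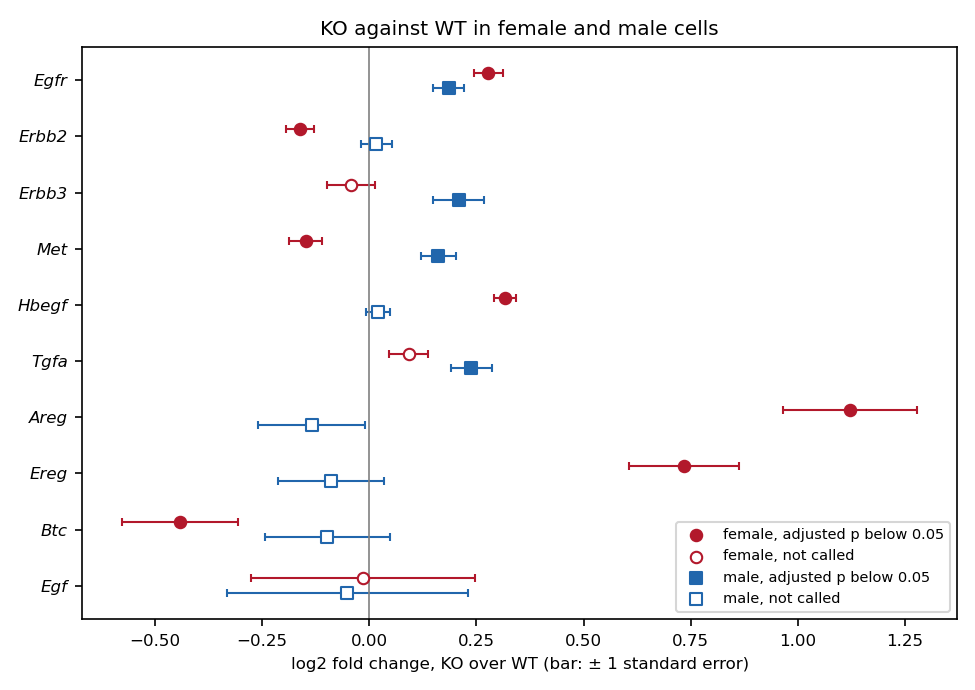
Log2 fold change of KO over WT (horizontal axis) for each of the 10 genes in female cells (red circles) and male cells (blue squares), with bars of 1 standard error and filled symbols for adjusted p below 0.05. Egfr is filled on the right in both sexes, Met is filled on opposite sides, and Areg has the largest value, 1.12 in female cells.

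The KO effects of the female and male pools were compared directly, as the female log2 fold change minus the male one. Each group was a single pool, so an effect of sex cannot be told apart from a difference between pools. Against the spread between libraries, the KO effect differed for 6 of 10 genes, where 15.6% of all genes were called. For 3 ligands it was higher in females and for 3 receptors lower, where 9.76% and 5.89% of all genes were called in these directions. Of the called genes 62.4% were higher, against 46.2% with library size as the only scaling. The difference was 1.26 ± 0.20 for Areg (adjusted p = 1.60e-05), 0.82 ± 0.18 for Ereg (adjusted p = 9.66e-04) and 0.30 ± 0.038 for Hbegf (adjusted p = 4.22e-07). It was -0.31 ± 0.057 for Met (adjusted p = 2.74e-04), the one gene of the 10 called in opposite directions in the sexes, and -0.18 ± 0.048 for Erbb2 (adjusted p = 0.00875). For Erbb3 it was -0.25 ± 0.081 (adjusted p = 0.0364). That call ended without any of 10 of the 15 libraries, which were male WT replicate 3, male KO replicates 1, 2 and 3, female WT replicates 2, 3 and 4 and female KO replicates 1, 2 and 3. Its adjusted p ran from 9.27e-04 to 0.0812 over all alternatives. For Egfr, called higher in both sexes, the difference was 0.09 ± 0.050 and did not pass (adjusted p = 0.245). Nor did it pass for Tgfa (-0.15 ± 0.066), Btc (-0.34 ± 0.20) and Egf (0.04 ± 0.38).

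A fit with the pool as the unit, on counts summed over the libraries of each of the 4 pools with sex as a term, leaves 1 residual degree of freedom. That degree of freedom is the difference in KO effect between the female and male pools. A gene with unlike effects in them therefore has a wider error and can hardly pass. In this fit 0 of the 10 genes passed by edgeR, nor under any alternative run on it, where 0.00719% of all genes did. At an unadjusted p below 0.05, with 17.7% of all genes, 2 of the 10 were higher in KO, Egfr at 0.24 ± 0.051 on the log2 scale (adjusted p = 0.157) and Tgfa at 0.17 ± 0.060 (adjusted p = 0.258). For Met, called in opposite directions in the sexes, the fit over pools gave 0.02 ± 0.087.

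Female and male cells were then compared within each genotype, again with a single pool on each side. In KO cells, Hbegf was higher in females, at 406 ± 5.58 CPM in female KO (n = 4) and 342 ± 6.97 CPM in male KO (n = 3), with a log2 fold change of 0.25 ± 0.028 (adjusted p = 5.62e-08). Areg was lower in females, at 3.34 ± 0.524 CPM in female KO and 4.73 ± 0.125 CPM in male KO (log2 fold change -0.51 ± 0.14, adjusted p = 0.0109). Met was lower too, at 209.7 CPM in female KO (SD 11.02) and 237 ± 8.51 CPM in male KO (log2 fold change -0.17 ± 0.042, adjusted p = 0.00676). Without male KO replicate 3 the adjusted p for Met was 0.0554, the highest of a range that began at 4.63e-04. These 3 of 10 genes compare with 9.2% of all genes, and 1 was higher and 2 were lower where 4.94% and 4.26% of all genes were. Libraries of the sexes did not overlap for these genes, nor for Erbb2, which did not pass at 74.6 ± 1.05 CPM in female KO and 76.3 ± 1.29 CPM in male KO (log2 fold change -0.03 ± 0.036). Over all genes 19.2% did not overlap, 9.64% with females higher and 9.59% with females lower.

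In WT cells, Areg and Ereg were lower in females, and Erbb2 and Met higher. Areg was at 1.51 ± 0.170 CPM in female WT and 5.15 ± 0.513 CPM in male WT (n = 4 each), a log2 fold change of -1.77 ± 0.14 (adjusted p = 4.63e-12). Ereg was at 2.59 ± 0.255 CPM in female WT and 4.52 ± 0.388 CPM in male WT (log2 fold change -0.80 ± 0.13, adjusted p = 5.29e-06). Erbb2 was higher in females, at 83.4 ± 2.26 CPM in female WT and 75.5 ± 1.26 CPM in male WT (log2 fold change 0.15 ± 0.033, adjusted p = 7.22e-04), and so was Met, at 233 ± 4.59 CPM in female WT and 212 ± 13.1 CPM in male WT (log2 fold change 0.14 ± 0.038, adjusted p = 0.00903). Met's libraries overlapped between these groups, and those of the other 3 did not, where 27.5% of all genes did not overlap, 12.1% with females higher and 15.5% with females lower. In all, 2 of 10 genes were higher and 2 lower, where 28.6% of all genes were called, 12.6% higher and 16% lower. Of all called genes 44.1% were higher, against 55.2% with library size as the only scaling. Since these comparisons use the libraries of the KO comparisons, their values are not separate evidence. Erbb3 did not pass in either genotype (adjusted p = 0.263 in KO and 0.0816 in WT cells), but some alternatives called it, with adjusted p from 0.0260 to 0.472 in KO cells and from 0.0194 to 0.271 in WT cells.

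**Figure D4:**
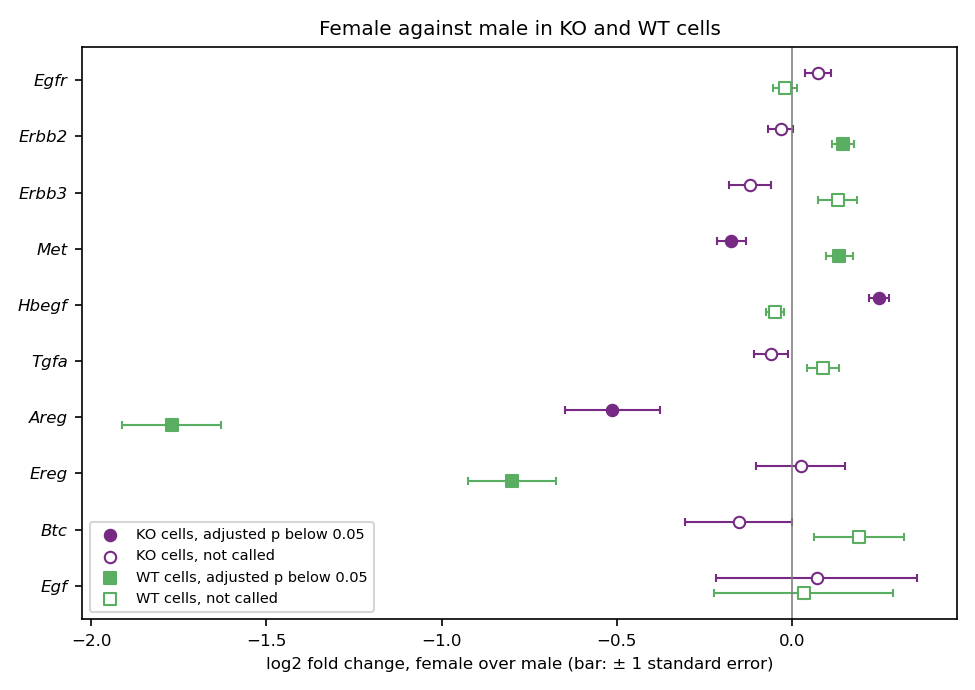
Log2 fold change of female over male (horizontal axis) for each of the 10 genes in KO cells (purple circles) and WT cells (green squares), with bars of 1 standard error and filled symbols for adjusted p below 0.05. Areg is lower in females in both genotypes, by -0.51 in KO and -1.77 in WT cells, and Met is filled on opposite sides of 0.

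Ordered by group mean, Egfr ran female KO, male KO, male WT, female WT, and only the step between male KO and male WT separated libraries that did not overlap. For Erbb2 the step from female WT down to male KO did so. Below it male KO overlapped male WT and male WT overlapped female KO, while male KO and female KO did not overlap. For Hbegf female KO stood above male KO without overlap, and male KO, male WT and female WT overlapped in turn. Areg ran male WT, male KO, female KO, female WT, with overlap between the male groups alone. Ereg had male WT, female KO and male KO overlapping at 4.52, 4.31 and 4.25 CPM, all above female WT at 2.59 CPM. For Met the order was male KO, female WT, male WT, female KO, and each neighbour overlapped the next, as it did for Erbb3, Tgfa, Btc and Egf.

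As a description of likeness, Pearson's r of log2 CPM was taken over the 15 libraries, which fall into 4 pools, so it follows pool means. Areg and Ereg were each other's closest among the 10 (r = 0.862), and Ereg was least like Erbb2 (r = -0.873). Egfr was closest to Hbegf (r = 0.787) and Met to Erbb3 (r = 0.755). Over all genes tested, the transcript most like Egfr was Klf6 (r = 0.977), a zinc finger transcription factor. Erbb2 was most like Tmem132a (0.970), Erbb3 like Ipmk (0.891), an inositol phosphate kinase, and Met like Mme (0.937), the brush border peptidase neprilysin. For the ligands the nearest were Dpysl3 for Hbegf (0.975), Dagla for Areg (0.974), Dock5 for Ereg (0.959), Dsg2, a desmosomal cadherin, for Tgfa (0.873), Clcn3 for Btc (0.890) and Efna2 for Egf (0.802).

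Beyond the 10, 92 other genes of the pathway were grouped in 6 lists, of which 86 had enough counts to be tested. Among the other receptors and ligands only 3 of 9 were tested. Erbb4, the remaining receptor of the family, was at 2.01 CPM in female KO and 6.19 CPM in female WT (log2 fold change -1.59 ± 0.16, adjusted p = 1.17e-09). In male cells it was at 2.99 CPM in KO and 4.30 CPM in WT (-0.51 ± 0.17, adjusted p = 0.0334). Nrg1, a neuregulin that binds Erbb3 and Erbb4, was lower in female KO (-0.12 ± 0.042). Hgf, the ligand of Met, had at most 9 counts in any library, and Epgn, Nrg3, Nrg4, Mst1 and the Met relative Mst1r at most 12, so none of these was tested. The summed level of 7 genes of collecting duct principal cells was 28.9 to 33.7 CPM in female KO and 34.5 to 40.5 in female WT. In male cells it was 28.9 to 32.1 in KO and 38.9 to 44.4 in WT. Aqp2 had at most 1 count in any library. Hsd11b2 made up most of each sum, at 27.4 CPM in female KO, 27.3 in female WT, 25.2 in male KO and 35.0 in male WT. Of the 4 tested members 3 were lower in female KO and 1 in male KO, where 18.6% and 10.1% of all genes were lower. Their part in the Erbb4 values was not tested.

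Counts in these lists stand beside shares over all genes tested of 20.7% higher and 18.6% lower in female KO, and 10.1% in each direction in male KO. Of 14 genes of ligand shedding and activation, all tested, 4 were higher and 5 lower in female KO, and 1 was higher and 2 lower in male KO. In female cells Hgfac (0.32 ± 0.091), which activates hepatocyte growth factor, and Rhbdf2 (0.18 ± 0.035) and Frmd8 (0.12 ± 0.031), which carry Adam17 to the surface and hold it there, were higher. Spint1, an inhibitor of such activators (-0.33 ± 0.033), the protease Hpn (-0.29 ± 0.059) and Adam12 (-0.28 ± 0.028) were lower. In male cells the protease St14 was higher (0.21 ± 0.028), and the metalloprotease inhibitor Timp3 (-0.74 ± 0.030) and Adam12 (-0.10 ± 0.031) were lower. Of 14 genes of receptor inhibition and turnover, 4 were higher and 3 lower in female KO, and 1 was higher and 2 lower in male KO. In male KO that is 3 of 14, where 20.2% of all genes were called. Lrig3, a leucine-rich repeat relative of the Egfr inhibitor Lrig1, was lower in both, by log2 fold changes of -0.43 ± 0.041 in females and -0.44 ± 0.046 in males. Sh3kbp1, which couples Cbl to receptor uptake, was higher in female KO (0.26 ± 0.034) and lower in male KO (-0.23 ± 0.038). The ubiquitin ligase Cblb (0.35 ± 0.042) and Lrig1 (0.14 ± 0.036) were higher in female KO, and the phosphatase Ptprj (-0.26 ± 0.032) and the deubiquitinase Usp8 (-0.14 ± 0.031) lower. Cblc was higher in male KO (0.21 ± 0.056). The medians of both lists lay between -0.01 and 0.04 in both sexes.

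Among 28 genes for adaptors and kinases, female KO cells had 10 higher and 2 lower, and male KO cells 5 higher and 4 lower. Over all genes the shares were 20.7% and 18.6% in female KO, and 10.1% each way in male KO. Hras and Nras, which pass the signal to the ERK cascade, were higher in both. Their log2 fold changes were 0.24 ± 0.045 and 0.21 ± 0.027 in female cells and 0.21 ± 0.048 and 0.16 ± 0.029 in male cells. Akt1, a kinase of the PI3 kinase pathway, was higher in female KO (0.24 ± 0.026). Nck1 (-0.18 ± 0.051) and Stat3 (-0.15 ± 0.029) were lower in female KO, and Gab2 (-0.17 ± 0.047), Pik3r1 (-0.15 ± 0.048) and Map2k1 (-0.13 ± 0.032) in male KO. Of 7 partners of Met, 6 were higher and 1 lower in female KO, and 3 were higher in male KO while the other 4 did not pass. Cd44 had 381 CPM in female KO and 222 CPM in female WT (0.78 ± 0.065), with Nrp2 (0.49 ± 0.040) and Itgb4 (0.28 ± 0.026) higher and Plxnb1, a plexin, lower (-0.22 ± 0.031). In male KO Itgb4 (0.25 ± 0.028), Itga6 (0.20 ± 0.035) and Plxnb2 (0.12 ± 0.025) were higher.

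ERK feedback and target genes were higher in female KO for 13 of 20 and lower for 1, where 20.7% of all genes were higher and 18.6% lower. The median of the 20 log2 fold changes was 0.31. In male KO 8 were higher and 2 lower, where 10.1% of all genes were called each way, with a median of 0.11. Phlda1 had 188 CPM in female KO and 107 CPM in female WT (0.82 ± 0.055), the ERK phosphatase gene Dusp5 45.7 CPM in female KO and 27.2 CPM in female WT (0.75 ± 0.046), and the feedback inhibitor gene Spry4 21.9 CPM in female KO and 13.2 CPM in female WT (0.73 ± 0.066). Spry1, a relative of Spry4, went the other way (-0.21 ± 0.034). In male cells Ccnd1, or cyclin D1, had 1164 CPM in KO and 829 CPM in WT (0.49 ± 0.037), and Emp1 (0.41 ± 0.056) and Dusp5 (0.28 ± 0.048) followed. Neither Ccnd1 nor Emp1 was particular to males. Ccnd1 had 1009 CPM in female KO and 636 CPM in female WT, and Emp1 42.7 CPM in female KO and 26.6 CPM in female WT. Dusp4 (-0.20 ± 0.040) and Spred2 (-0.14 ± 0.041) were lower in male KO. The KO effect was higher in females for 14 of the 20 and lower for 2, where 9.76% and 5.89% of all genes were. The median difference was 0.21, against 0.0020 over all genes tested. In WT cells 2 of the 20 were higher and 12 lower in females than males (median -0.14), where 12.6% and 16% of all genes were. In KO cells 4 were higher and 2 lower in females (median 0.09), where 4.94% and 4.26% of all genes were. These lists were written with earlier results of these data known.

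**Figure D5:**
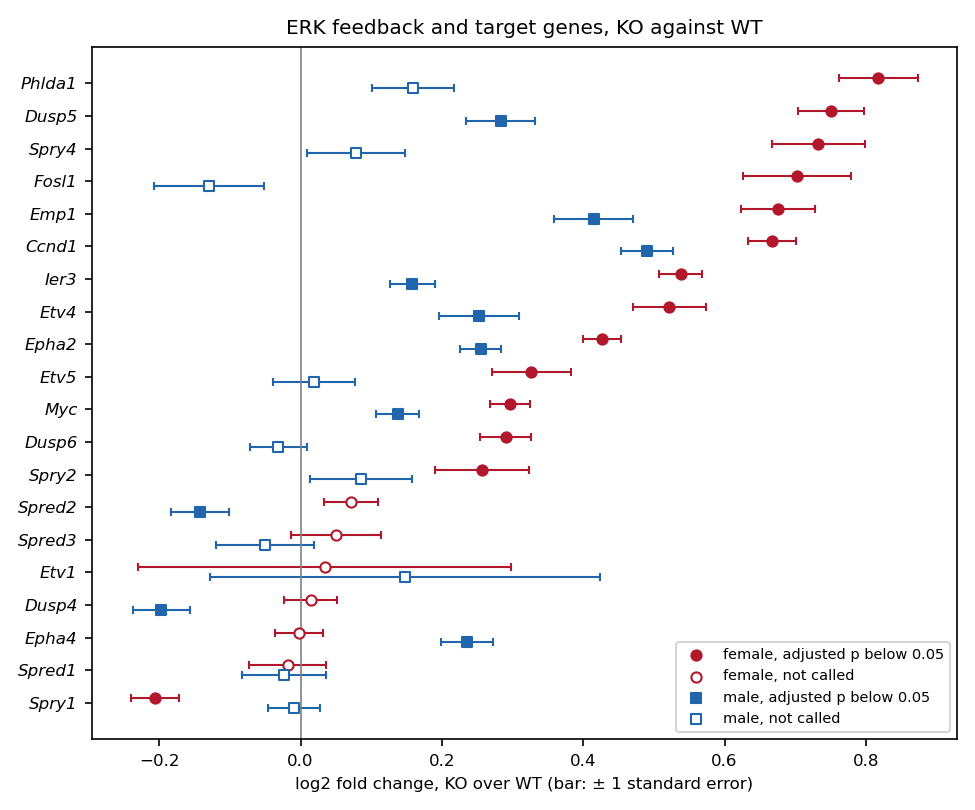
Log2 fold change of KO over WT (horizontal axis) for 20 ERK feedback and target genes, ordered by the female value, in female cells (red circles) and male cells (blue squares), with bars of 1 standard error and filled symbols for adjusted p below 0.05. Phlda1, Dusp5 and Spry4 lead in females at 0.82, 0.75 and 0.73, and 13 female symbols are filled on the right, against 8 male ones.

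The pools also differed in transcripts of other cells, and in bulk RNA fewer cells of a type and less RNA per cell cannot be told apart. Calls in the following marker lists stand beside 20.7% of all genes higher and 18.6% lower in female KO, and 10.1% each way in male KO. The summed level of 10 fibroblast genes was 2608 to 2840 CPM in female KO, 3627 to 3908 in female WT, 1847 to 2040 in male KO and 3524 to 3764 in male WT, with 5 of 8 tested members lower and 1 higher in female KO and 7 lower in male KO. Endothelial genes summed to 38.0 to 49.0 CPM in female KO, 33.0 to 39.9 in female WT, 37.3 to 41.6 in male KO and 79.7 to 85.3 in male WT. Of the 10 tested, 3 were higher in female KO and 9 lower in male KO. Leukocyte genes, among them those of macrophages, which can make Hbegf, Areg and Ereg, summed to 52.7 to 65.1 CPM in female KO, 38.1 to 47.4 in female WT, 35.5 to 37.8 in male KO and 23.2 to 28.4 in male WT. Of 10 tested members 5 were higher in each KO, and the T cell gene Cd3e was at 0 in female KO. The 5 distal convoluted tubule genes summed to 26.4 to 32.3 CPM in female KO, 42.3 to 45.0 in female WT, 34.6 to 35.1 in male KO and 35.5 to 42.5 in male WT, with Pvalb at 0 in every group, and 2 of 3 tested members were lower in female KO and none called in male KO. Trpm6 made up most of each sum, at 21.7 CPM in female KO, 33.9 in female WT, 28.2 in male KO and 31.2 in male WT. Group means were only 0.116 to 0.478 CPM for Slc12a3 and 0.0819 to 0.125 for Calb1. The 6 thick ascending limb genes, of the segment that makes Egf, summed to 2.95 to 4.91 CPM in female KO, 3.65 to 5.74 in female WT, 3.51 to 4.53 in male KO and 3.42 to 4.80 in male WT. The 12 immediate early genes, which respond fast to many stimuli, summed to 723 to 811 CPM in female KO, 658 to 685 in female WT, 689 to 757 in male KO and 681 to 720.1 in male WT. Of them 7 were higher and 2 lower in female KO, and 3 were higher and 3 lower in male KO. Podocyte genes (8) summed to 337 to 379 CPM in female KO, 331 to 351 in female WT, 429 to 467 in male KO and 502 to 532 in male WT. Genes of smooth muscle and pericytes (8) summed to 3566 to 4125 CPM in female KO and 3628 to 3672 in female WT. In male cells they summed to 2767 to 2845 in KO and 3290.0 to 3628 in WT. Acta2 and Tagln made up most of each sum. Of the 8, all tested, 2 were higher and 4 lower in female KO, and 7 were lower in male KO. The part of any of these in the values of the 10 genes was not tested.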

How the data were processed

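Raw counts per gene were deposited for 15 libraries. The submitters' processing notes name STAR 2.6.1, featureCounts, mm10, limma 3.40.6 and edgeR 3.26.8, but neither the annotation nor the strand setting is given in the sources used here. CPM values, deposited as well, served as a check and equal count over library total to within 1e-06.

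Low genes were removed by filterByExpr (a minimum count of 10 and total of 15). After TMM scaling, 1 quasi-likelihood fit took in all 4 groups (R 4.3.3, edgeR 4.0.16). The 5 contrasts were adjusted by Benjamini-Hochberg over the 13912 genes tested, with calls below 0.05. Each standard error is the size of the log2 fold change divided by the root of F. The root of the common dispersion came to 3.59%. Libraries were also summed per pool. At these depths 3 counts, taken as the floor, are 0.0971 to 0.170 CPM; that floor covers counting error only. Exon lengths and positions are from GENCODE M21 (GRCm38), which held all 10 genes, and promoters from RefSeq. No pair of libraries within a group agreed within sampling noise (chi-square per gene 1.53 or more in 21 pairs).

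The genes and lists were chosen with earlier results of these data known. The 10 genes are all named. From each pathway list up to 3 called genes per direction and sex with the largest fold are named, and for likeness the gene with the highest r, passing over predicted, clone and date-like names. One gene that this rule names is not reported here. The fit was tested on simulated data. Alternatives were other scalings, DESeq2 1.42.0, limma-voom (limma 3.58.1), filters, a fit of the compared groups alone, a replicate block and each library left out.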

Additional observations from a re-analysis of the deposited data

Results flagged for a closer look

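A test of the female minus male KO effect, measured against library spread within single pools, passed for 6 of the 10 genes. Values are on the log2 scale. These were 1.26 for Areg, 0.82 for Ereg, 0.30 for Hbegf, -0.18 for Erbb2, -0.25 for Erbb3 and -0.31 for Met. Beside them, 15.6% of all genes tested passed.

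In 30 sets of 4 libraries (10 genes in 3 groups), 2 single libraries stood apart from the other 3 by Dixon's test, where chance flags about 1 set in 20. For Areg, male WT replicate 2 had 4.39 CPM and the others 5.37 to 5.47. For Btc, female KO replicate 1 had 2.97 CPM and the others 3.59 to 3.60. The calls for both genes were the same without these libraries.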

How the results depend on the processing

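Over the 1175 recomputed log2 fold changes of the 10 genes, 1154 kept their call, 13 lost it, 8 gained it and none of the called ones changed sign. The changed calls were all of Erbb3 and Met. Of 496 recomputed counts of calls, 486 stayed within 1.5 times. With library size as the only scaling, 1273 genes had a lower KO effect in females, against 819. A filter of 5 CPM in at least 3 libraries left 1 of the 10 genes called lower in female than male WT cells, against 2, since Ereg was no longer tested; Btc and Egf were not tested under it either. Leaving out each library gave 1 to 3 genes called lower in female than male KO cells, against 2. The fit over pools was not stable: its 0 higher and 1 lower genes became 130 and 134 with library size only and 137 and 130 with no filter, and its lower genes became 2 with upper quartile scaling and 0 with DESeq2 size factors or the stricter filter; the cause was not tested, and 0 of the 10 genes passed in any of them. Replicate numbers are not said to mark anything shared. Same-numbered libraries had deviations correlated at -0.02 to 0.37 over 14 pairs, of which 7 were above 0.1. In 10 of these 14 pairs, the KO library (between the sexes, the female one) was closest to its own number. With the replicate block, Erbb3 passed between the sexes, at 0.13 in WT (adjusted p = 0.0194) and -0.15 in KO cells (adjusted p = 0.0260), and the block changed no other call of the 10 genes. Depth limits Egf, Areg, Ereg and Btc most.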
